A study of Mus musculus with 8 samples.

Results

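The genes described here are 9 transcription factors known from the stroma, the supporting mesenchyme, of the early kidney and its surroundings: Foxd1, Tbx18, Tcf21, Meis1, Meis2, Foxc1, Foxc2, Foxf1 and Twist1. They were taken by name, all 9 were measured, and they make up 9 of the 19356 genes that had a probe set of their own on the arrays. The arrays held RNA from the caudal end of the mouse urogenital ridge at E10.75, a stage at which the kidney begins to form, from 4 wildtype and 4 Sox11 knock-out (Sox11-/-) replicates on a mixed genetic background, with no treatment. The labels used here do not state how the Sox11 allele was made or how many embryos went into a replicate.

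The kidney forms when an epithelial bud grows from the nephric duct into the metanephric mesenchyme, and the stroma lies around both. Foxd1, a forkhead factor, marks the cortical stromal progenitors, which give rise to interstitial and mural cells. Tbx18, a T-box factor, marks the mesenchyme that later surrounds the ureter. Tcf21 and Twist1 are basic helix-loop-helix factors of mesenchyme, and Meis1 and Meis2 are homeodomain factors that bind DNA together with PBX proteins. Foxc1 and Foxc2 are forkhead factors of intermediate and paraxial mesoderm, where Foxc1 restricts the place at which the ureteric bud forms. Foxf1 is a forkhead factor of lateral and gut mesoderm that responds to hedgehog signals. Several of these factors are also made outside the kidney, in somites, gut wall or limb, so their signal in a dissected ridge is not that of stroma alone.

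Sox11 itself checked the labels. Its log2 signal was between 11.72 and 11.86 in wildtype and between 8.93 and 9.24 in Sox11-/- arrays, a difference of -2.69 (SE 0.08, limma adjusted p = 6.36e-08). Signal of the Y-linked Eif2s3y and Kdm5d was seen in wildtype replicate 1 and in Sox11-/- replicates 3 and 4. Array medians lay between 7.29 and 7.31 on the log2 scale. The mean signals of the 9 stromal factors lay between percentiles 55.7 and 99.7 of all genes, so none was at the lower end of the range, where array values understate differences. Probe sets differ in brightness, so these percentiles give no order of abundance between genes.

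None of the 9 factors differed between the genotypes past the threshold. Limma called 0 of 9 at an adjusted p under 0.05, where it called 1.44% of all genes (1.08% with a lower and 0.362% with a higher mean in Sox11-/-). With the arrays centred on their medians the split over all genes was 137 lower and 82 higher, beside 209 and 70. At an unadjusted p under 0.05 there were 3 of 9, against 16.7% of all genes. Foxd1 and Twist1 had lower means in Sox11-/-, as 9.38% of all genes did at that p, and Tcf21 had a higher mean, as 7.29% did. A linear model without moderation of the variances also called 0 of 9. In 0 of the 9 were the arrays of the genotypes fully apart, against 10.5% of all genes. The difference (Sox11-/- minus wildtype, log2) was below 0 in 7 factors and above 0 in 2, with a median of -0.06, and over all genes the median was -0.0005. With bulk RNA, fewer cells of a type and less RNA per cell cannot be told apart.

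**Figure D1:**
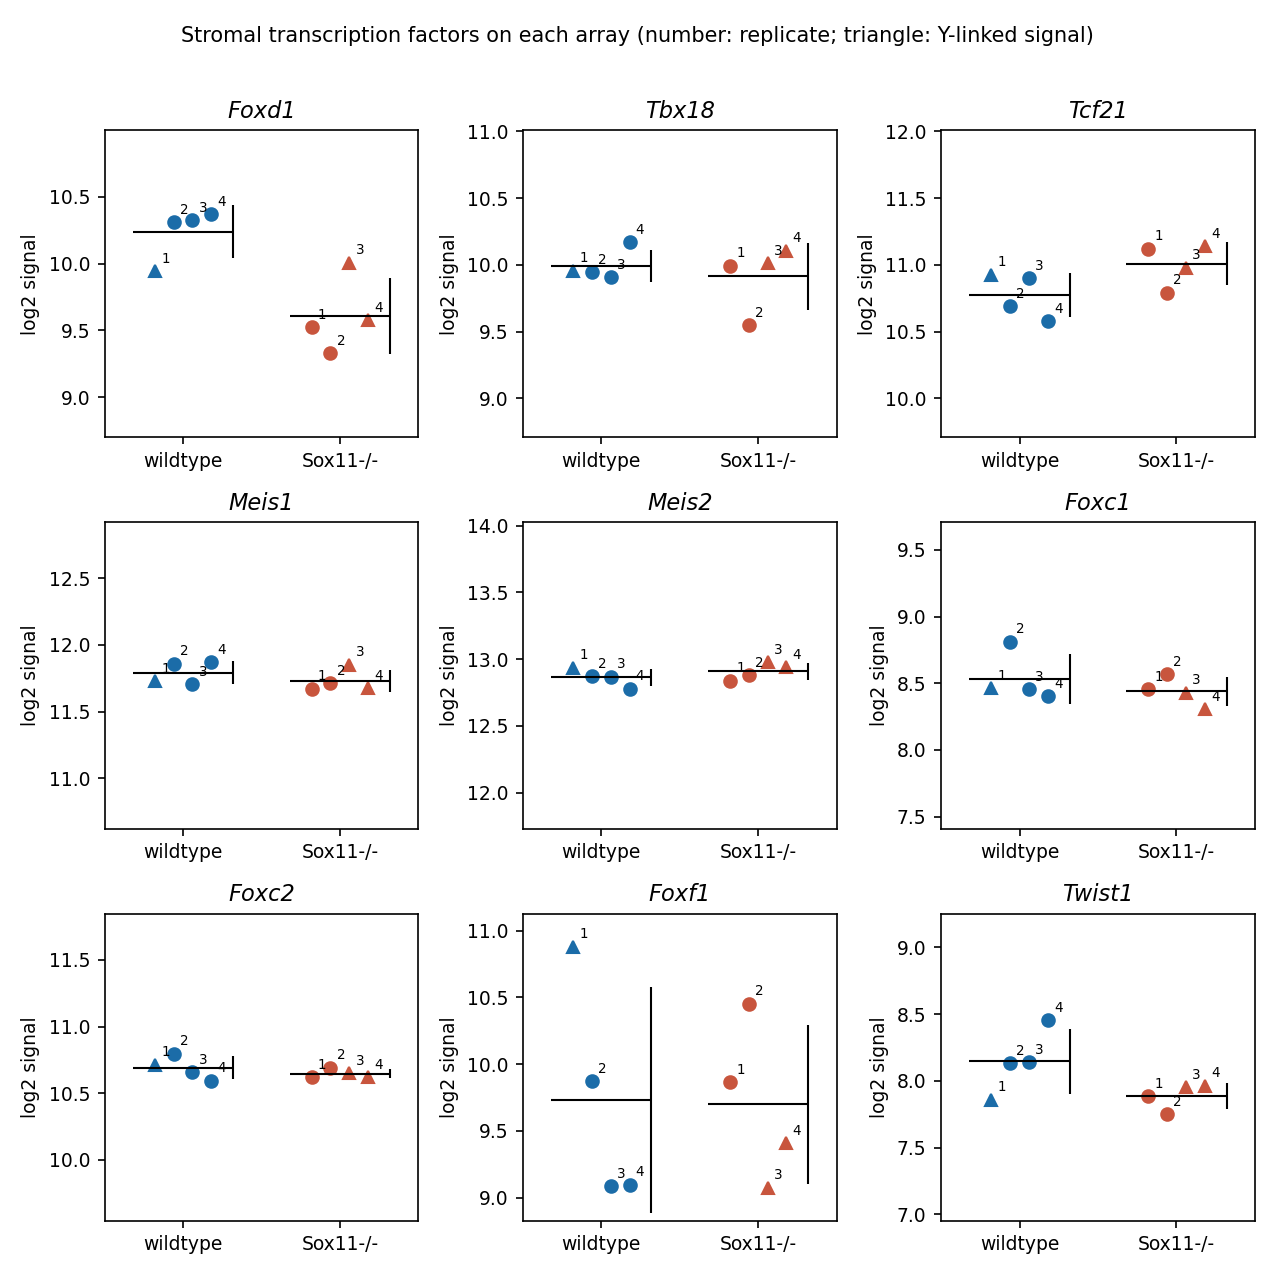
Log2 signal (y axis, the same span of values in every panel) of the 9 stromal factors in 4 wildtype (blue) and 4 Sox11-/- (red) arrays; numbers are replicates, triangles are arrays with Y-linked signal, horizontal lines are means and vertical lines the SD. Foxd1 shows the widest gap between the means, Foxf1 the widest spread within each genotype, and Meis2 and Foxc2 nearly level values.

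Foxd1 had the largest difference of the 9. Its log2 signal was 9.94, 10.31, 10.33 and 10.37 in wildtype replicates 1 to 4 and 9.52, 9.33, 10.01 and 9.57 in Sox11-/- replicates 1 to 4. The values thus overlapped through a single array on each side: wildtype replicate 1 was the low wildtype array and Sox11-/- replicate 3 the high Sox11-/- array, while the other 3 Sox11-/- arrays lay below every wildtype array. The means were 10.24 ± 0.20 and 9.61 ± 0.29 (SD, n = 4 each), a difference of -0.63 (SE 0.14, 95% confidence interval -0.95 to -0.32), or 1.55-fold, with a limma adjusted p of 0.0633. Without wildtype replicate 1 the difference was -0.73 (limma adjusted p = 0.0474), and without Sox11-/- replicate 3 it was -0.76 (limma adjusted p = 0.0179). Without each of the other 6 arrays it did not pass, with limma adjusted p-values up to 0.165.

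Both arrays that closed the gap in Foxd1 carried Y-linked signal. Among the arrays without it, the Foxd1 mean was 10.34 in 3 wildtype and 9.42 in 2 Sox11-/- arrays, a difference of -0.91. Among the arrays with it, the values were 9.94 in 1 wildtype and a mean of 9.79 in 2 Sox11-/- arrays, a difference of -0.15. That mean covered 10.01 in Sox11-/- replicate 3 and 9.57 in replicate 4. Replicate 4 lay near the Sox11-/- arrays without Y-linked signal, at 9.52 and 9.33. This split was made after the Foxd1 values were seen and has 1 wildtype array on one side, wildtype replicate 1, so it is a description and no test of it is given. Adding Y-linked signal to the model, the Foxd1 difference was -0.64 (SE 0.15, limma adjusted p = 0.101), beside an SE of 0.14 in the reported analysis. In each genotype the array with the lowest Foxd1 had the highest mean of the gut genes described below. These were wildtype replicate 1 (7.19) and Sox11-/- replicate 2 (7.16). With that mean as the covariate, a setting added after the data were seen, the SE was 0.10. Why Foxd1 varied within the genotypes was not tested.

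**Figure D2:**
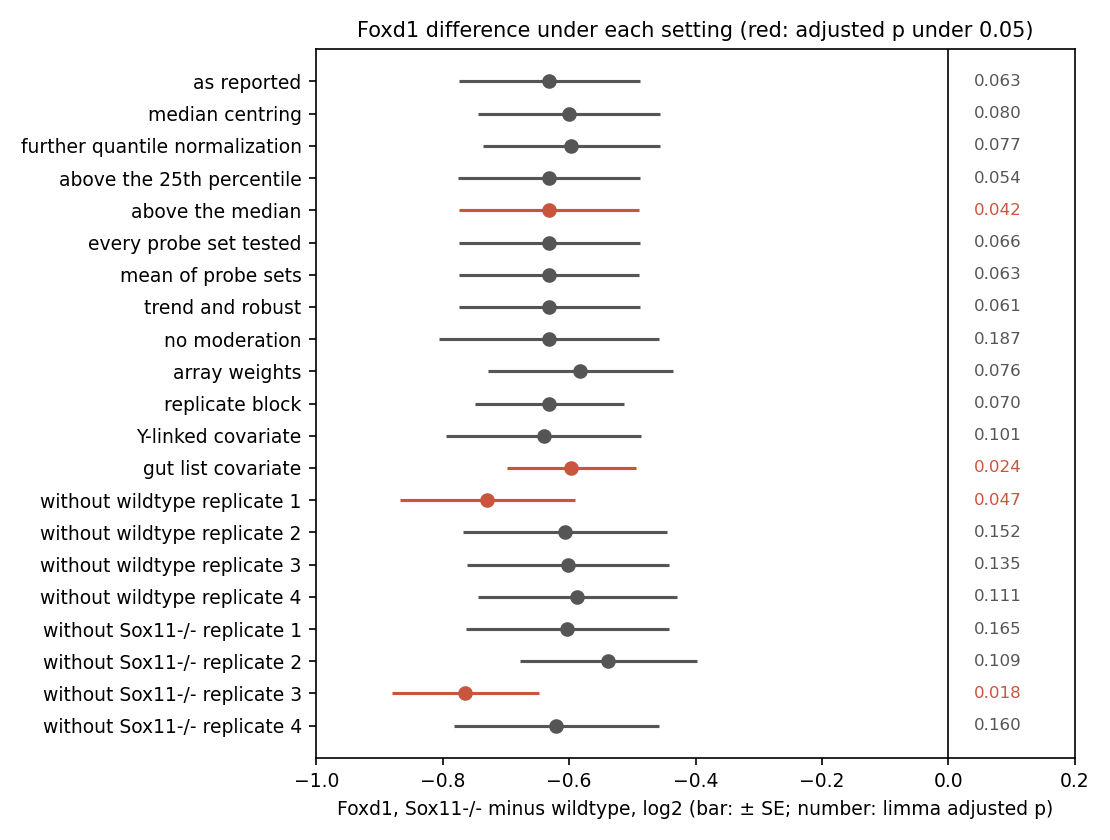
Difference of Foxd1 (x axis, Sox11-/- minus wildtype, log2; bars are ± SE) under the reported analysis and each alternative (rows), with the limma adjusted p at the right (for the model without moderation, the adjusted p of that linear model). Every value lies between -0.76 and -0.54, and 4 settings (red) pass an adjusted p of 0.05.

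Twist1, a factor of mesenchymal identity and cell movement, followed with a smaller difference. Its size was above that of Tcf21 in the reported analysis and below it with the arrays centred on their medians (-0.23 against 0.27), after a further quantile normalization (-0.21 against 0.26) and with array weights (-0.20 against 0.22). Its signal was 7.86, 8.13, 8.14 and 8.45 in wildtype replicates 1 to 4 and 7.88, 7.75, 7.95 and 7.96 in Sox11-/- replicates 1 to 4. In wildtype, 3 arrays lay above every Sox11-/- array, and replicate 1 lay among the Sox11-/- values, as it did for Foxd1. The difference was -0.26 (SE 0.11, 95% confidence interval -0.51 to -0.01, limma adjusted p = 0.285). In arrays without Y-linked signal it was -0.42, and with wildtype replicate 1 as the only wildtype array it was 0.10 in those with it.

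Twist1 lies on chromosome 12, as Sox11 does, with 38 protein-coding genes between them in RefSeq's GRCm38.p6 annotation. Of these 36 were measured, 11 had an unadjusted p under 0.05 (beside 16.7% of all genes), 1 passed limma's adjusted threshold, with a higher mean in Sox11-/-, and their median difference was 0.03. The genes on either side of Twist1 are Ferd3l, a basic helix-loop-helix gene, and Hdac9, which encodes a histone deacetylase. Ferd3l had a difference of 0.74 (SE 0.30, limma adjusted p = 0.249) and Hdac9 one of -0.11 (SE 0.08, limma adjusted p = 0.503), so neither passed.

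Tcf21, which is needed for the mesenchyme of kidney and other viscera, went the other way. Its signal was 10.93, 10.69, 10.90 and 10.58 in wildtype replicates 1 to 4 and 11.12, 10.79, 10.98 and 11.14 in Sox11-/- replicates 1 to 4. Here 3 Sox11-/- arrays lay above every wildtype array, and Sox11-/- replicate 2 lay among the wildtype values. The difference was 0.23 (SE 0.10, 95% confidence interval 0.0047 to 0.46), or 1.18-fold, with a limma adjusted p of 0.289.

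The DNA just before the start of these 3 genes is shown because they are the factors with an unadjusted p under 0.05. Each sequence is the 250 bases before the transcription start in RefSeq's table of GRCm38.p6, read 5′ to 3′ in the direction of the gene, and capitals mark AACAAT or ACAAAG, short forms of the motif that SOX proteins bind, or their reverse complements ATTGTT and CTTTGT.
Foxd1, chr13:98353995-98354244, plus strand: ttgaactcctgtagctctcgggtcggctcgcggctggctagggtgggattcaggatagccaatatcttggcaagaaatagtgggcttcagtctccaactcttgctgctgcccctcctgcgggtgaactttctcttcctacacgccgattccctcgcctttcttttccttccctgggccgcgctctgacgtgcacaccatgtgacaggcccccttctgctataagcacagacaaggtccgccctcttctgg
Twist1, chr12:33957421-33957670, plus strand: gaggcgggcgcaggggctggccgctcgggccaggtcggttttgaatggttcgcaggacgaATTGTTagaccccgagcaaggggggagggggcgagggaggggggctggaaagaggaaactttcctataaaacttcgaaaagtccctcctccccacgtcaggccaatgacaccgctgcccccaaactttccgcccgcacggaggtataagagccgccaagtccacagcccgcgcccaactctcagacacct
Tcf21, chr10:22820144-22820393, minus strand: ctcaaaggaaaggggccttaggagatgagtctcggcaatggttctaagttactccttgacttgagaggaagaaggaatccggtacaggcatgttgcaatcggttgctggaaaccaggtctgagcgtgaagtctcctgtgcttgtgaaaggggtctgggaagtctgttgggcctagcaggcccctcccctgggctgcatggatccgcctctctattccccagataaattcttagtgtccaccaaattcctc

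Of the 9 factors 7 had an entry in that table, and Foxc2 and Foxf1 did not. The windows of Foxd1 and Tcf21 held none of these letters, and that of Twist1 held ATTGTT 1 time, beginning 190 bases before the start. AACAAT or its reverse complement was in 1 of the 7 windows and in 9.42% of all 32851 windows, and ACAAAG or its reverse complement was in 0 of the 7 and in 16.5% of all windows. These counts describe letters in a window and not binding. The 7 windows had between 47.6% and 70.8% G and C bases (Meis2 and Foxc1), with a median of 52.4% over all windows.

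Foxf1 varied more within the genotypes than any other of the 9. Its signal was 10.88, 9.87, 9.09 and 9.10 in wildtype replicates 1 to 4 and 9.86, 10.45, 9.07 and 9.40 in Sox11-/- replicates 1 to 4. High and low arrays thus occurred in both genotypes, over a range of 1.80 or 3.49-fold. In arrays without Y-linked signal the difference was 0.81 and in those with it -1.64, where wildtype replicate 1, the highest array, was the only wildtype array. Without Y-linked signal the sign was opposite to that of Foxd1, and with it both genes had lower means in Sox11-/-. These differences are likewise a description. Its SD within a genotype was 0.73, higher than that of 99.8% of all genes, for which the median was 0.12. The difference between the genotypes was -0.03 (SE 0.40, 95% confidence interval -0.91 to 0.84, limma adjusted p = 0.976). Its sign turned under other settings, among them a further quantile normalization (0.0048) and the mean of its probe sets (0.010), so the data give no direction for Foxf1 and do not exclude a change of the size seen in Foxd1.

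The spread of Foxf1 was not that of a single probe set. Foxf1 had a further probe set, with 10.57, 9.66, 8.88 and 8.69 in wildtype and 9.65, 10.05, 9.02 and 9.30 in Sox11-/- arrays, in which wildtype replicate 1 and Sox11-/- replicate 2 were again the high arrays. The genes whose values over the 8 arrays came closest to those of Foxf1 were looked up after this spread was seen, by the root mean square difference after centring each gene on its mean. The closest was Foxf2, the nearest relative of Foxf1, at 0.17 on the log2 scale. Its signal was 9.49, 8.78, 7.71 and 7.64 in wildtype and 8.61, 9.15, 8.16 and 8.07 in Sox11-/- replicates 1 to 4. Then came 1700018A04Rik at 0.20 and Isl2, a LIM homeodomain gene, at 0.25.

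The arrays with high Foxf1 also had high signal of a list of gut genes. A list of 8 genes of the gut tube and its mesenchyme, among them Isl1 and Nkx2-3, had mean signals of 6.74 to 7.19 in wildtype and 6.85 to 7.16 in Sox11-/- arrays. Its mean followed Foxf1 over the 8 arrays with Pearson's r = 0.94 (exact permutation p = 7.44e-04, adjusted p = 0.0104) and Spearman's rho = 0.95 (exact permutation p = 0.00114, adjusted p = 0.0160), both two-sided and adjusted over 14 lists tested against Foxf1. This adjustment does not cover the choice of Foxf1 among the 9 factors, which followed from its spread on the same arrays. Nor does it cover the choice of the lists, made with earlier results of these data known. The p-values are thus no independent support. Without wildtype replicate 1 and Sox11-/- replicate 2, the arrays farthest from the median of Foxf1, r was 0.87 over 6 arrays. Over these 6 arrays the value did not set the gut list apart, since r was 0.92 for smooth muscle genes, 0.90 for endothelium and 0.86 for protein partners, lists with r of 0.51, 0.17 and 0.50 over all 8. Within the genotypes r was 0.92 in wildtype and 0.996 in Sox11-/- arrays, each over 4 arrays. With so few arrays other lists also had values far from 0. For hedgehog receptors and targets r was 0.98 in wildtype and 0.60 in Sox11-/- arrays. For somite genes it was 0.95 and -0.86, and for nephric duct genes -0.32 and -0.97. Isl1, a LIM homeodomain factor, was highest in the same 2 arrays, at 10.84 in wildtype replicate 1 and 11.03 in Sox11-/- replicate 2, and between 9.73 and 10.40 in the others. Not every gene of the list did so. Nkx2-3 was 6.93 in wildtype replicate 1 but 6.29 in Sox11-/- replicate 2, below Sox11-/- replicate 1 (6.60). Sox17 was 7.15 and 7.45 in these 2 arrays and Barx1 was 5.95 and 5.88, both below wildtype replicate 2 (7.66 and 6.20). No other list passed over the 8 arrays. For hedgehog receptors and targets r was 0.83 (exact permutation p = 0.0121, adjusted p = 0.0847), with Spearman's rho = 0.60 (exact permutation p = 0.132, adjusted p = 0.572), and 0.18 without the same 2 arrays, so this relation rested on them. With the mean of the gut list as a covariate, a setting added after the data were seen, the Foxd1 difference was -0.60 (SE 0.10, limma adjusted p = 0.0239).

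**Figure D3:**
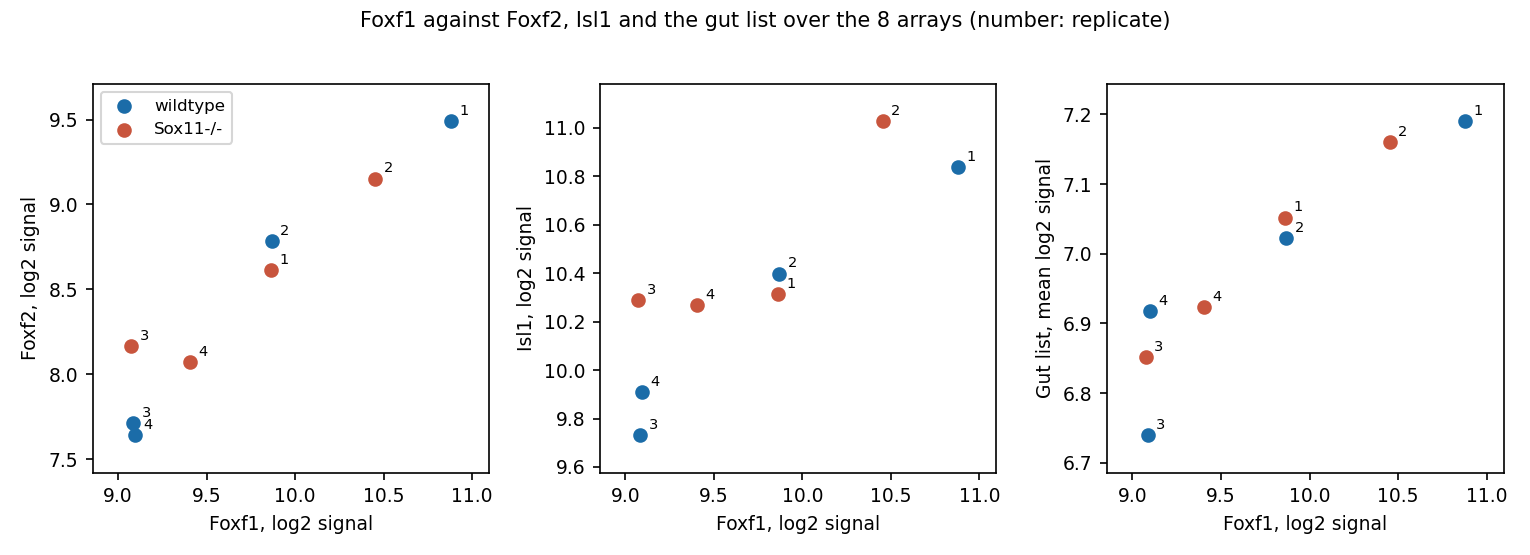
Foxf1 log2 signal (x axis) on the 8 arrays against Foxf2, Isl1 and the mean of the gut list (y axes, log2), wildtype in blue and Sox11-/- in red, with replicate numbers. Wildtype replicate 1 and Sox11-/- replicate 2 lie at the upper right in each panel, and both genotypes run along the same line with the gut list.

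Tbx18 and the remaining factors had small differences. Tbx18 was 9.96, 9.94, 9.91 and 10.17 in wildtype and 9.99, 9.55, 10.01 and 10.11 in Sox11-/- replicates 1 to 4, so that only Sox11-/- replicate 2 stood below the rest. Its difference was -0.08 (SE 0.12, 95% confidence interval -0.34 to 0.18, limma adjusted p = 0.765), and without that array it was 0.04. Foxc1 was 8.46, 8.81, 8.46 and 8.40 in wildtype and 8.45, 8.57, 8.43 and 8.31 in Sox11-/- arrays, where wildtype replicate 2 was the high array. Its difference was -0.09 (SE 0.10, 95% confidence interval -0.31 to 0.13, limma adjusted p = 0.665).

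Meis1, Meis2 and Foxc2 were the steadiest of the 9. Meis1 lay between 11.70 and 11.87 in wildtype and between 11.67 and 11.85 in Sox11-/- arrays, Meis2 between 12.78 and 12.94 and between 12.84 and 12.98, and Foxc2 between 10.59 and 10.80 and between 10.62 and 10.69. Their SDs within a genotype were 0.08, 0.06 and 0.06. The differences were -0.06 for Meis1 (95% confidence interval -0.22 to 0.10), 0.05 for Meis2 (-0.10 to 0.19) and -0.05 for Foxc2 (-0.19 to 0.10), with limma adjusted p-values of 0.693, 0.751 and 0.759. For 7 of the 9 factors the interval lay inside a 1.5-fold change in either direction, and the exceptions were Foxd1 and Foxf1.

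**Figure D4:**
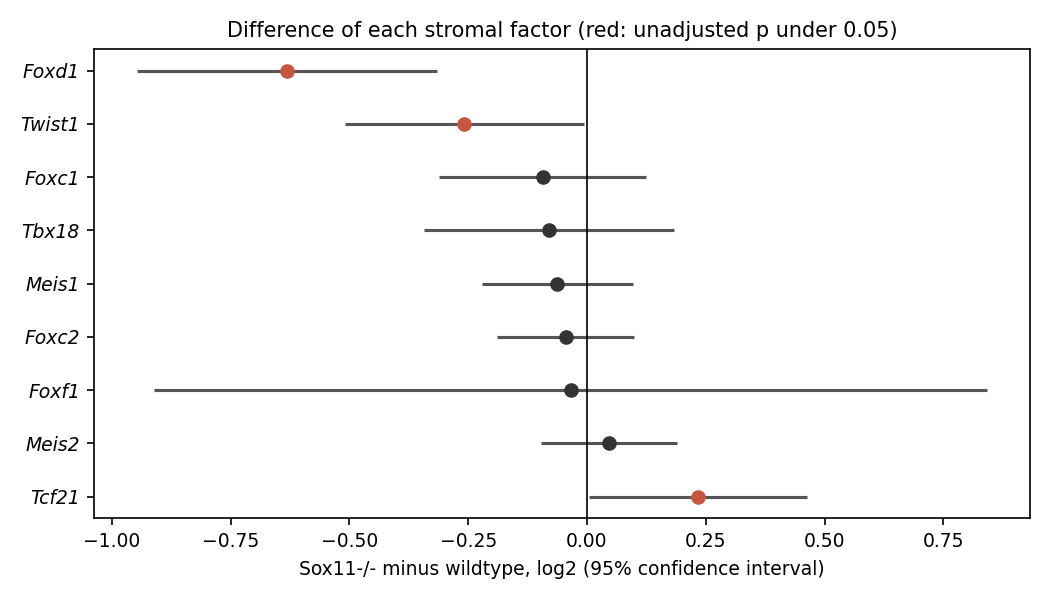
Difference of each of the 9 factors (x axis, Sox11-/- minus wildtype, log2) with its 95% confidence interval from limma; red points have an unadjusted p under 0.05. Foxd1 (-0.63) lies farthest from 0 and Foxf1 has the widest interval (-0.91 to 0.84).

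Genes with values like those of the 3 factors with an unadjusted p under 0.05 were named by the same measure, over all 8 arrays. Closest to Foxd1 were Tspan11, a tetraspanin gene, at 0.11, Pdpn, which encodes the membrane glycoprotein podoplanin, at 0.12, and Efna3, an ephrin ligand gene, at 0.13. On the log2 scale Tspan11 fell by 0.72 (SE 0.14, limma adjusted p = 0.0344) and Efna3 by 0.55, a difference of -0.55 (SE 0.11, limma adjusted p = 0.0415), and Pdpn had a difference of -0.58 (SE 0.14, limma adjusted p = 0.0779). The call of Tspan11 was lost without wildtype replicates 2, 3 and 4 and Sox11-/- replicates 1, 2 and 4 (limma adjusted p up to 0.108), that of Efna3 without each array but wildtype replicate 1 (up to 0.114), and Pdpn passed without Sox11-/- replicate 3 (0.0171). With the Y-linked covariate neither Tspan11 nor Efna3 passed (limma adjusted p = 0.0669 and 0.0740). Efna3 also missed with the arrays centred on their medians (0.0516), after a further quantile normalization (0.0556) and with the replicate number as a block (0.0779), while Pdpn passed with that block (0.0442) and with the gut covariate (0.0375). Without moderation of the variances none of the 3 passed. Closest to Tcf21 was Kcnh4, a potassium channel gene, at 0.05, and closest to Twist1 was Sfxn3, a gene of the mitochondrial sideroflexins, at 0.06, and neither passed (limma adjusted p = 0.520 and 0.308). Among 19356 genes and 8 arrays many genes lie close to any other, so this likeness is a description. The like genes were chosen on these same values, the gap between the genotypes included. The direction of their differences and their low p-values thus follow in part from the choice.

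Relatives of the 9 factors did not pass either. Of 12 genes of the same families limma called 0, with 1 higher and 3 lower at an unadjusted p under 0.05 and a median difference of 0.03. Foxd2, a forkhead gene expressed in kidney mesenchyme, was 8.53, 8.63, 8.39 and 8.63 in wildtype and 8.29, 8.37, 8.32 and 8.27 in Sox11-/- replicates 1 to 4. All 4 Sox11-/- arrays thus lay below all 4 wildtype arrays. Foxd2 was the only one of these 12 genes for which the genotypes did not overlap, beside 10.5% of all genes. Its difference was -0.23 (SE 0.07, limma adjusted p = 0.156). Foxd3, a neural crest factor, had -0.48 (SE 0.18, limma adjusted p = 0.229), Meis3 had -0.23 (SE 0.10, limma adjusted p = 0.264) and Msc, a helix-loop-helix gene related to Tcf21, had 0.30 (SE 0.11, limma adjusted p = 0.200). Twist2, the relative of Twist1, had -0.13 (SE 0.21, limma adjusted p = 0.775). Tbx15, a relative of Tbx18, was 7.51 in Sox11-/- replicate 3 and between 5.39 and 5.77 in the other 7 arrays.

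Protein partners of the factors were likewise without a call. Of 15 listed partners 14 were measured: PBX and PREP factors, which bind DNA with MEIS proteins, and E proteins, HAND factors and ID inhibitors, which pair with or block TWIST1 and TCF21. Limma called 0 of 14, with 0 higher and 3 lower at an unadjusted p under 0.05 and a median of -0.01. Tcf3, an E protein gene, had a difference of -0.18 (SE 0.06) and the inhibitor genes Id3 and Id1 had -0.17 (SE 0.07) and -0.31 (SE 0.12), with limma adjusted p-values of 0.207, 0.236 and 0.241.

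Other stromal genes, such as matrix genes, receptors and signals of stroma, had 22 of 32 differences above 0 and 10 below, with a median of 0.12 beside the -0.0005 of all genes. Limma called 0 of the 32. At an unadjusted p under 0.05, 6 were higher and 1 lower, beside 7.29% and 9.38% of all genes. The mean signal of the list was 10.23 to 10.38 in wildtype and 10.30 to 10.45 in Sox11-/- arrays, so the genotypes overlapped. Wnt5a, a secreted signal of mesenchyme, was 9.24, 9.15, 9.26 and 9.22 in wildtype and 9.51, 9.29, 9.54 and 9.62 in Sox11-/- replicates 1 to 4, with no overlap and a difference of 0.27 (SE 0.08, limma adjusted p = 0.128). Col3a1, a fibrillar collagen gene of loose mesenchyme, was between 9.70 and 9.79 in wildtype and between 9.90 and 10.01 in Sox11-/- arrays, again without overlap. Its difference was 0.20 (SE 0.06, limma adjusted p = 0.140). In 2 of the 32 genes the genotypes did not overlap, beside 10.5% of all genes. The matrix genes Tnc and Ecm1 had differences of 0.68 (SE 0.27) and 0.44 (SE 0.18), with limma adjusted p-values of 0.238 and 0.251. Ecm1 passed without Sox11-/- replicate 2 (limma adjusted p = 0.0280).

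Of the signals known to act on these factors, the retinoic acid list had 8 of 9 measured genes below 0 and a median of -0.14. Its mean signal was 9.20 to 9.25 in wildtype and 9.01 to 9.13 in Sox11-/- arrays. Crabp2, which encodes a cytoplasmic binding protein for retinoic acid, was 10.06, 9.73, 9.86 and 9.83 in wildtype and 9.42, 9.58, 9.51 and 9.46 in Sox11-/- arrays. On the log2 scale it fell by 0.38 (SE 0.08; limma adjusted p = 0.0493) and was the only call of the list. That call was lost without each of the 8 arrays (limma adjusted p from 0.0604 to 0.146). On all 8 arrays it was also lost with the arrays centred on their medians (limma adjusted p = 0.0839), after a further quantile normalization (0.0776), with every probe set tested (0.0528), with the replicate number as a block (0.122), with the Y-linked covariate (0.0586), with the gut covariate (0.0525) and, in the linear model without moderation, at an adjusted p of 0.118. Hoxb1, a direct target, and Rarb, a receptor, had differences of -0.33 and -0.19 (SE 0.09 each), with limma adjusted p-values of 0.114 and 0.325. For hedgehog receptors and targets, limma called 0 of 10 measured genes, 0 had an unadjusted p under 0.05 and the median was 0.02. Smooth muscle is a later product of ureteric and mural stroma. The mean signal of its genes was 8.17 to 9.14 in wildtype and 8.66 to 9.23 in Sox11-/- arrays, so the genotypes overlapped. Of the differences 8 of 8 were above 0, with a median of 0.28, while 50.1% of all genes lay below 0. Within the genotypes Acta2, Actg2 and Myh11 were each highest in wildtype replicate 2 and Sox11-/- replicate 1. The 8 differences are thus not separate results. Limma called 0, and 1 was higher at an unadjusted p under 0.05. That gene was Des, an intermediate filament gene of muscle, at 0.38 (SE 0.08, limma adjusted p = 0.0600), which passed under 5 of the alternatives, the lowest limma adjusted p being 0.0227.

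**Figure D5:**
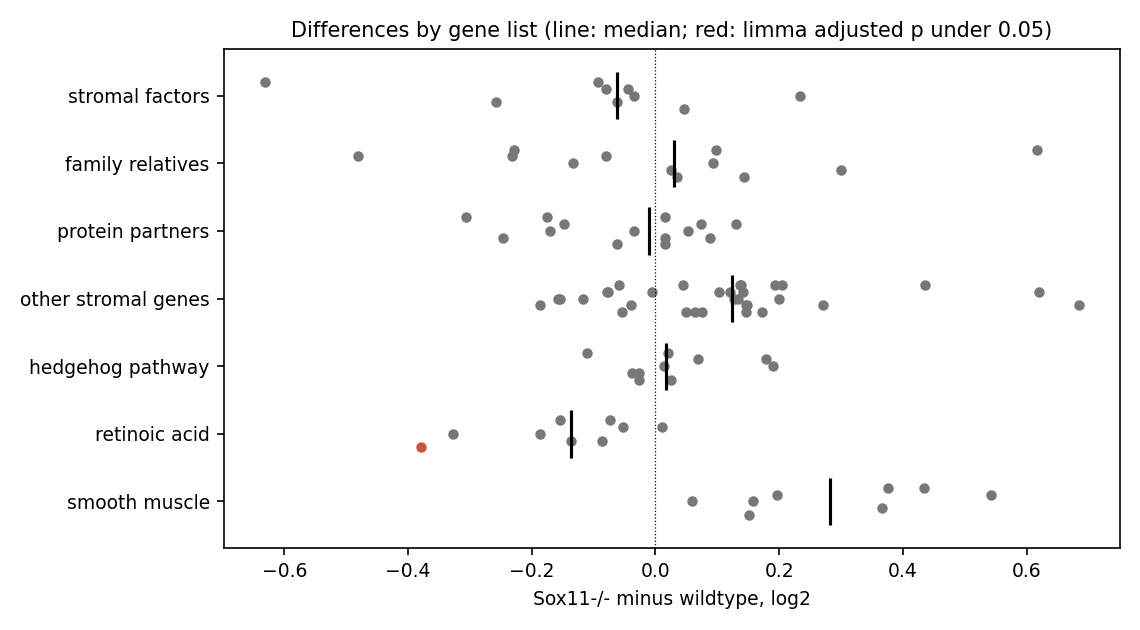
Difference of each measured gene (points; x axis, Sox11-/- minus wildtype, log2) in the stromal factors, their relatives and partners, other stromal genes, hedgehog and retinoic acid genes and smooth muscle genes; black lines are medians. Crabp2 in the retinoic acid list is the only red point (limma adjusted p under 0.05), and the medians run from -0.14 (retinoic acid) to 0.28 (smooth muscle).

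Markers of other cells in the dissection were read beside these values, and their part in the stromal results was not tested beyond the settings named above. Mean signals of the list of metanephric mesenchyme were 9.83 to 9.96 in wildtype and 9.74 to 9.85 in Sox11-/- arrays, with 0 genes higher and 1 lower (Six2) of 12 measured. Those of the nephric duct were 8.95 to 9.19 and 9.25 to 9.36, with 1 higher (Ret) and 0 lower of 11. Those of somites, where Foxc1, Foxc2, Tbx18 and Twist1 are also made, were 7.10 to 7.32 and 6.98 to 7.12, with 0 higher and 2 lower (Meox2 and Uncx) of 13. Meox1 had the largest difference of the somite list, -0.94 (SE 0.20), and just missed (limma adjusted p = 0.0517). In 3 of the 13, Meox1, Meox2 and Uncx, the genotypes did not overlap, beside 10.5% of all genes. Neural crest markers were 7.69 to 7.81 and 7.74 to 7.88, with 1 higher (Erbb3) and 0 lower of 6. Limb and body wall (7.24 to 7.70 and 7.27 to 7.86, 9 genes), gonad and coelomic epithelium (7.83 to 8.35 and 7.63 to 8.36, 8 genes), endothelium (9.31 to 9.69 and 9.45 to 9.73, 8 genes) and red cells (8.65 to 9.27 and 8.59 to 8.91, 10 genes) had no call by limma. At an unadjusted p under 0.05, 1 gene of limb and body wall was higher and 1 lower, and there were 0 of gonad and of endothelium. All 5 red cell genes at that p were lower, 9 of 10 lay below 0 and the median was -0.27. At the same p, 5 of the 11 nephric duct genes were higher and 0 lower (median 0.23), 4 of the 12 genes of metanephric mesenchyme were lower and 0 higher (median -0.20), 3 of the 13 somite genes were lower and 0 higher (median 0.02), and 2 of the 6 neural crest genes were higher and 1 lower (median 0.15). Meox2 passed without any single array, Uncx lost it without Sox11-/- replicate 1 (limma adjusted p = 0.0505), Ret without wildtype replicates 2 and 3 and Sox11-/- replicates 1, 2 and 3 (up to 0.0764), Six2 without each array but wildtype replicate 1 (up to 0.122) and Erbb3 without each array (up to 0.113). On all 8 arrays Six2 lost it with the arrays centred on their medians (limma adjusted p = 0.0804), after a further quantile normalization (0.0697) and with the Y-linked covariate (0.0809). Erbb3 lost it with the replicate number as a block (0.0633), with the Y-linked covariate (0.0669) and with the gut covariate (0.0544). In the linear model without moderation none of these 5 genes passed (adjusted p from 0.0646 to 0.134).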

How the data were processed

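RNA from the caudal urogenital ridge was amplified and labelled for Affymetrix arrays after reduction of ribosomal RNA, per the labels' protocols. The deposited table holds 1 log2 value per probe set and array (27478 probe sets, 8 arrays), made by the authors with RMA, with Partek also named, per the submitters' processing notes. For their versions, filters and genome build nothing is given in the labels or notes used here. The log2 scale was inferred from the range of values, 4.30 to 14.62. RMA equalises the arrays, so a shift of all transcripts cannot be seen. Arrays carry no counts, and the number of arrays limits the precision.

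Probe sets were named from the platform annotation: 21103 had 1 symbol, 1531 several and 4844 none. Where a gene had several probe sets, the brightest by its mean was used. Of the 9 factors 8 had 1 probe set and Foxf1 had 2. All 19356 genes were fitted with limma 3.58.1 under R 4.3.3 (functions lmFit and eBayes, genotype as the only term, two-sided), with Benjamini-Hochberg adjustment over all genes and a threshold of 0.05. Limma's p-values set a difference against the spread between these replicates, with the variances moderated across all genes. Tested on simulated data of this size, the analysis recovered 64% of 100 genes changed by 0.5 and 93% of 100 changed by 1 on the log2 scale. Of its 165 calls 8 were of unchanged genes. The changed genes were drawn at random and kept their own spread, so these shares need not hold for noisier genes. Foxd1 and Foxf1 had SDs within a genotype of 0.25 and 0.73, higher than those of 92.7% and 99.8% of all genes. The factors and lists were chosen with earlier results of these data known. Genes named are the 9 factors, all relatives and neighbours or the 4 lowest p-values of a list, and the 3 genes most like a factor with an unadjusted p under 0.05; those like Foxf1 were added later. The text gives part of these. Genes listed but without a probe set of their own were not used here. Some lists share genes (Foxd3, Foxf2, Rarb, Prrx1, Emx2, Wt1 and Sox17). Correlations used exact permutation tests over all orders of the arrays. Promoter letters were searched on both strands.

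Alternatives were arrays centred on their medians, a second quantile normalization, signal above the 25th percentile or above the median, tests of every probe set, means of probe sets, trended and robust moderation, no moderation, weighted arrays, a block for the replicate number, Y-linked signal as a covariate and leaving out each array. The gut list as a covariate, the other Foxf1 probe set and the split by Y-linked signal were added after the data were seen.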

Additional observations from a re-analysis of the deposited data

Results flagged for a closer look

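In groups of 4 arrays, the highest or lowest array stood apart from the other 3 (past Dixon's 95% limit for the gap relative to the group's range) in 9 of 128 groups examined, where chance gives about 1 in 20. For Foxd1 it was wildtype replicate 1 (9.94, the others 10.31 to 10.37), and for Foxc1 wildtype replicate 2 (8.81, the others 8.40 to 8.46). Tspan11 was low in wildtype replicate 1 too (7.42, the others 7.86 to 7.94), but it was chosen for its likeness to Foxd1 over the same arrays, so this follows from the choice and is no separate case. Sox11-/- replicate 2 was low for Ecm1 (9.98, the others 10.69 to 10.83) and for the mean of the other stromal genes (10.30, the others 10.44 to 10.45), and high for Isl1 (11.03, the others 10.27 to 10.31). Sox11-/- replicate 3 was high for Tbx15 (7.51, the others 5.45 to 5.77) and Meox2 (9.34, the others 9.09 to 9.10), and Sox11-/- replicate 4 for Col3a1 (10.01, the others 9.90 to 9.91).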

How the results depend on the processing

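Foxd1 kept its sign under every alternative run. It passed among genes above the median signal (-0.63, limma adjusted p = 0.0421) and with the gut list as a covariate (-0.60, limma adjusted p = 0.0239), which made the count of factors called 1 in each, and it missed under the other 10 alternatives on all arrays (adjusted p up to 0.187). When 1 array was left out it ranged from -0.76 to -0.54, and the count of factors called from 0 to 1. Foxf1 turned sign after a further quantile normalization (0.0048), with the mean of its probe sets (0.010) and on its other probe set (0.054), and it ranged from -0.29 to 0.35 without 1 array. Tbx18 ranged from -0.14 to 0.043. The other 6 factors kept their sign and missed the threshold under every alternative run. The genes lower and higher over the whole array (209 and 70) were 137 and 82 with the arrays centred on their medians, 48 and 7 without moderation and 115 and 33 with the Y-linked covariate, and 88 to 192 and 17 to 55 without 1 array. With the replicate number as a block they were 117 and 49. Same-numbered arrays correlated at -0.17, 0.09, -0.04 and 0.06 (deviations from group means). Only wildtype replicate 4 and Sox11-/- replicate 2 correlated best with the array of their own number, so the numbers do not show pairing. The block changed no call among the 9 factors (Foxd1 limma adjusted p = 0.0700). Of genes near 0, Foxf2 turned to -0.061 with array weights and -0.024 with the gut covariate, and 1700018A04Rik to -0.012 with array weights. Without 1 array Foxf2 ranged from -0.16 to 0.45, 1700018A04Rik from -0.10 to 0.47, Isl2 from -0.55 to 0.10, Nkx2-3 from -0.23 to 0.079 and Twist2 from -0.36 to 0.025. The cause of these changes was not tested.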
